A study of Mus musculus with 9 samples.

Results

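Expression of 10 receptor tyrosine kinase genes other than Kit was read in 9 RNA-seq libraries of mouse acute myeloid leukemia (AML) cells driven by the MLL-AF9 fusion. The genes were Igf1r, Insr, Met, Pdgfrb, Pdgfra, Axl, Mertk, Tyro3, Flt1 and Fgfr1, which are 10 of the 55536 genes in the deposited table. They were selected by name from genes whose levels in these libraries were already known, so their levels and differences are given as descriptions with no p-value, and nothing is read from how many of them differed. The values were taken to be TPM, a share of all transcripts in a library, corrected for gene length. As shares, they compare libraries only relative to the other transcripts of each, so large changes in abundant genes shift the rest.

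Each of the 3 groups had 3 libraries. WT c-kit- and WT c-kit+, as their labels read, are AML cells of wild-type origin, sorted by whether surface c-kit, the protein of Kit, was absent or present. The remaining libraries are labelled IRF7-/- c-kit+ (the labelled group below), sorted the same way from leukemia raised in cells whose Irf7 lacks exons 2 and 3, which a PGK-beta-geo cassette replaced. For every group, c-kit+ marrow cells had been infected with an MSCV retrovirus carrying MLL-AF9 and GFP, and the labels list the genotypes as control-GFP overexpression and IRF7-/--GFP overexpression. By the labels, 1000000 GFP+ leukemia cells were given to each C57BL/6J recipient of 6 to 8 weeks, with no irradiation, and bone marrow was taken on day 18. Recipients therefore kept their own marrow cells, and GFP was the only mark of the leukemia. The labels do not say whether libraries of a group came from separate leukemias or mice, so the spread between them may be partly technical. Leukemias of each genotype were raised from their own donor cells, and how many there were is not given. Genotype thus cannot be told apart from differences between leukemias. WT c-kit+ against WT c-kit- compares leukemia cells with and without this progenitor marker, and the labelled group against WT c-kit+ asks what differs in c-kit+ cells labelled as lacking Irf7.

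Kit, at 0.52 to 3.03 TPM in WT c-kit-, 50.7 to 58.5 TPM in WT c-kit+ and 70.3 to 85.7 TPM in the labelled group, followed the sort. Irf7 went against its label: it was 3.36 to 5.31 TPM in WT c-kit+ and, above all of these, 5.97 to 12.8 TPM in the labelled group. This difference fell short of the size asked for in a call below. The paper reports that IRF7 in its models was checked by qRT-PCR and Western blot. TPM are summed over the whole gene, so the Irf7 value does not separate the deleted exons from those left in place, and every direction drawn from these libraries below rests on their label. Among 10 myeloid leukemia genes, Elane and Mpo were the most abundant, and the lowest value of any of the 10 was 35.4 TPM, for Meis1. The lists for other cells of marrow were lower or mixed. Endothelial markers (8 genes, led by Egfl7 and Vwf) summed to 6.7 to 9.66 TPM over the 9 libraries, erythroid markers (8 genes, led by Hba-a1 and Hba-a2) to 3.36 to 17.6 TPM, and megakaryocyte markers (8 genes, led by Gp9 and Itga2b) to 1.89 to 2.68 TPM in WT c-kit- and 9.32 to 13.0 TPM in the c-kit+ groups. Macrophage markers (14 genes, led by Adgre1 and Slc40a1) summed to 121.7 to 161.9 TPM in WT c-kit-, 56.1 to 86.4 TPM in WT c-kit+ and 81.2 to 111.2 TPM in the labelled group, with C1qa at no more than 3.79 TPM. The lymphoid sum (8 genes, led by Ighm and Cd79a) was nearly all Ighm, at 367.4 to 462.3 TPM in WT c-kit-, 117.2 to 142.7 TPM in WT c-kit+ and 56.0 to 126.7 TPM in the labelled group. The plasmacytoid dendritic cell sum (5 genes, led by Irf8 and Bst2) was 580.3 to 774.4 TPM in WT c-kit-, 144.9 to 202.8 TPM in WT c-kit+ and 228.1 to 418.4 TPM in the labelled group. The lymphoid and plasmacytoid sums were thus highest in WT c-kit-, as were Met, Csf1r and Flt3 below, and the part of such cells in those levels was not tested. The mast cell and basophil sum (6 genes, led by Hdc and Mcpt8) was 207.2 to 261.0 TPM in the labelled group and 39.0 to 101.0 TPM elsewhere. Hdc made this gap, at 104.7 to 179.1 TPM in the labelled group and no more than 8.61 TPM elsewhere, while Cpa3, Mcpt8, Ms4a2 and Gata2 overlapped between the c-kit+ groups and Fcer1a was at 0 in all 3 labelled libraries. Stromal markers are given beside Pdgfrb. In bulk RNA, fewer cells of a type and less RNA per cell cannot be told apart.

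Receptor tyrosine kinases span the cell membrane. In most of them a ligand outside brings receptor chains together. The kinase domains phosphorylate each other, and adaptor proteins then pass the signal to the RAS-ERK and PI3K-AKT pathways, which drive growth and survival. Kit is itself one of these receptors and marks blood progenitors. Igf1r and Insr bind insulin-like growth factors and insulin, Met binds hepatocyte growth factor, Pdgfra and Pdgfrb bind platelet-derived growth factors, Axl, Mertk and Tyro3 (the TAM receptors) bind Gas6 and protein S, Flt1 binds vascular endothelial growth factors, and Fgfr1 binds fibroblast growth factors.

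Of the 10 genes, 6 passed the filter on low values (1 TPM or more in 3 or more of the 6 libraries compared) in every comparison: Igf1r, Insr, Met, Pdgfrb, Axl and Flt1. Pdgfra, Mertk, Tyro3 and Fgfr1 stayed under 1 TPM in all 9 libraries. Whether strand was used in counting is not given in the sources used here, but genes that overlap a member in the annotation were at 0 in all 9 libraries, except Vmn2r-ps88 inside Insr, at no more than 0.17 TPM. A gene was called different when its log2 fold change on the log2(TPM + 1) scale was at least 1 in size with a limma Benjamini-Hochberg adjusted p under 0.05, over all genes that passed the filter. From WT c-kit- to WT c-kit+, Igf1r was called higher and Met lower, beside 4.83% of 13261 genes called higher and 9.61% called lower. From WT c-kit+ to the libraries labelled IRF7-/- c-kit+, Pdgfrb was called higher, and Igf1r and Flt1 lower, beside 6.30% of 13238 genes called higher and 5.39% called lower. Against WT c-kit-, the labelled group had Pdgfrb and Igf1r called higher and Met lower, beside 8.40% of 13510 genes called higher and 11.9% called lower. Libraries of the groups did not overlap for 4 of the 6 genes in the first comparison, where 54.4% of all genes tested did not overlap. They did not overlap for 4 of the 6 in the second (59.1% of all genes) and for 5 of the 6 in the third (67.1%). The comparisons share libraries, so their lists of genes are not independent of each other.

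**Figure D1:**
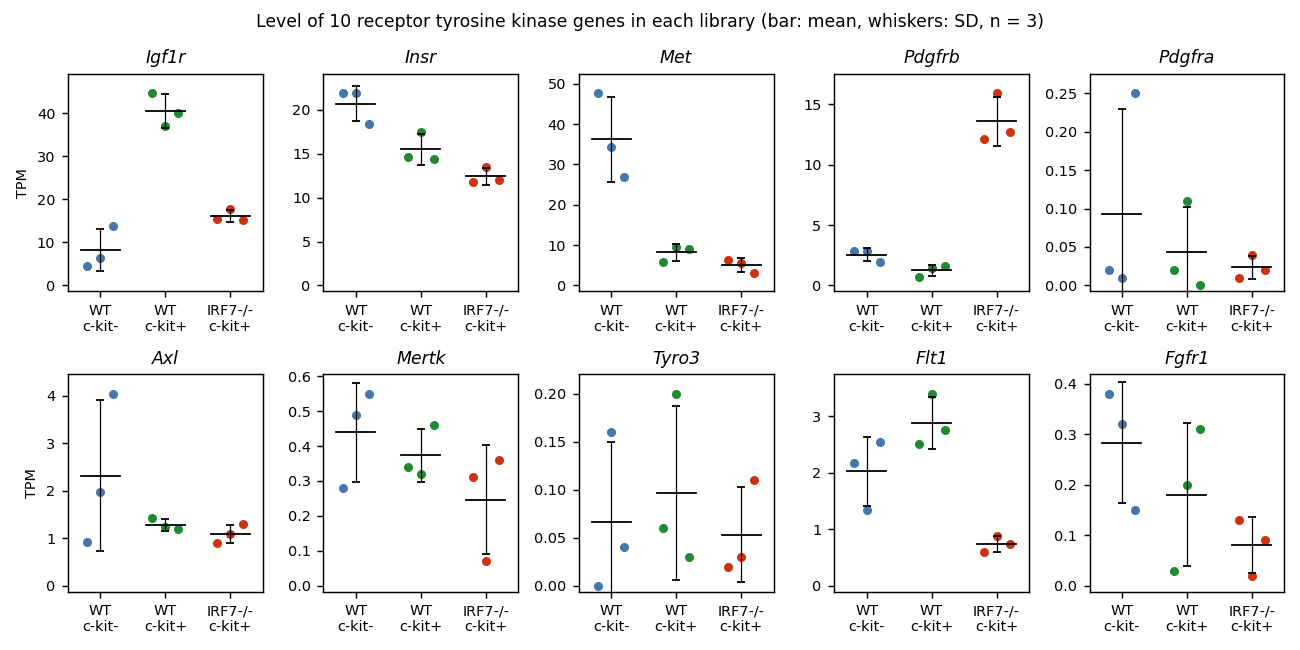
Level in TPM (vertical axis, a separate linear scale for each gene) of the 10 receptor tyrosine kinase genes in each of the 9 libraries, by group (horizontal axis; IRF7-/- as labelled). Points are libraries, horizontal bars group means and whiskers 1 SD with n = 3, not drawn below 0; Igf1r, Insr and Pdgfrb show 3 groups with no overlap, and Pdgfra, Mertk, Tyro3 and Fgfr1 stay under 1 TPM.

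Igf1r, the receptor for insulin-like growth factors (GENCODE M21 on GRCm38, chr7:67952827-68233668, plus strand), had the highest mean of the 10 genes in both c-kit+ groups. It was 4.56, 6.47 and 13.9 TPM in WT c-kit- libraries 1, 2 and 3 and 44.7, 37.0 and 40.0 TPM in WT c-kit+, while the labelled group had 15.5, 17.8 and 15.1 TPM. The 3 groups did not overlap, and the labelled group sat between the other groups, nearest to WT c-kit- library 3. Means were 8.31 ± 4.93, 40.6 ± 3.88 and 16.1 ± 1.45 TPM (SD, n = 3), so that the WT c-kit+ mean was 4.88 times that of WT c-kit- and 2.51 times that of the labelled group. The log2 fold change was 2.28 (standard error 0.34) from WT c-kit- to WT c-kit+ and −1.28 (standard error 0.10) from WT c-kit+ to the labelled group. From WT c-kit- to the labelled group it was 1.01 (standard error 0.34), just at the size asked for. That call was lost in 7 of 13 alternatives, among them leaving out WT c-kit- library 1 (0.70) or 2 (0.91), or any 1 of the labelled libraries 1, 2 and 3 (1.03, 0.94 and 1.05). The other Igf1r calls were kept in 13 of 13 alternatives. WT c-kit- library 3 also had the most Kit of its group: Kit stood at 0.972%, 2.22% and 5.66% of the WT c-kit+ mean in libraries 1, 2 and 3, and Igf1r at 11.2%, 15.9% and 34.2%. The part of carried-over c-kit+ cells in the Igf1r levels was not tested. Without library 3 the log2 fold change of Igf1r from WT c-kit- was 2.69 (standard error 0.16) to WT c-kit+ and 1.41 (standard error 0.16) to the labelled group.

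Insr, the insulin receptor and closest relative of Igf1r (chr8:3122061-3279617, minus strand), was 21.9, 21.9 and 18.4 TPM in WT c-kit- and 14.6, 17.5 and 14.4 TPM in WT c-kit+, while the labelled group had 11.7, 13.5 and 12.0 TPM. The groups did not overlap, and their order was not that of Igf1r. The ratio of the highest group mean to the lowest was 1.67, the smallest of the 3 genes whose groups were all apart. Means were 20.7 ± 2.04, 15.5 ± 1.73 and 12.4 ± 0.947 TPM (SD, n = 3), and no difference reached a log2 size of 1: from WT c-kit- it was −0.40 (standard error 0.11) to WT c-kit+ and −0.69 (standard error 0.10) to the labelled group, and between the c-kit+ groups −0.30 (standard error 0.11). With quantile normalization the first of these was −0.24. Igf1r was below Insr in every WT c-kit- library and above it in every c-kit+ library of either group.

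Met, the receptor for hepatocyte growth factor (chr6:17463800-17573980, plus strand), was the highest of the 10 genes in WT c-kit-, at 47.7, 34.4 and 26.8 TPM. It was 5.85, 9.61 and 9.10 TPM in WT c-kit+, while the labelled group had 6.38, 5.52 and 3.07 TPM. Every WT c-kit- library lay above the other 6, and both c-kit+ groups overlapped. Means were 36.3 ± 10.5, 8.19 ± 2.04 and 4.99 ± 1.72 TPM (SD, n = 3), the first being 4.44 and 7.28 times the others. The log2 fold change from WT c-kit- was −2.01 (standard error 0.25) to WT c-kit+ and −2.65 (standard error 0.28) to the labelled group. Between the c-kit+ groups it was −0.64 (standard error 0.27), and −0.38 without labelled library 3, which held the lowest level. WT c-kit- library 3, the library with the most Kit, had the lowest Met of its group.

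**Figure D2:**
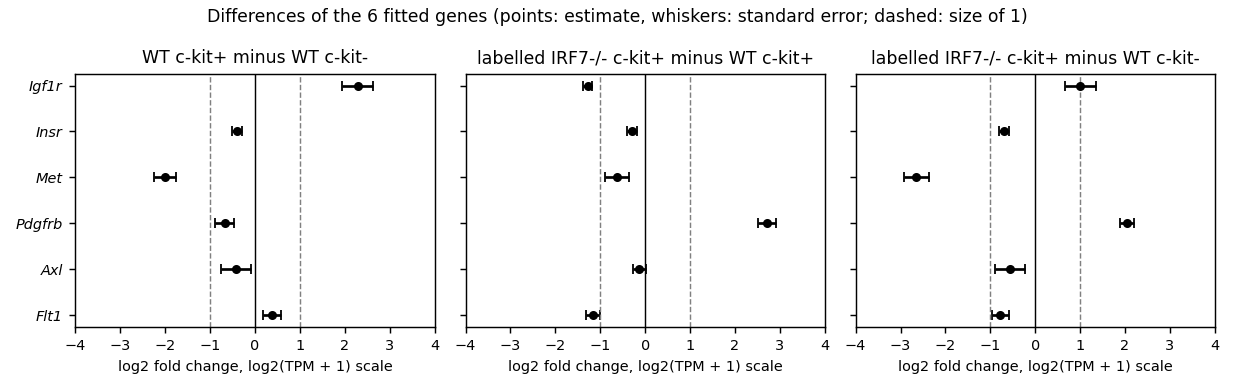
Log2 fold change on the log2(TPM + 1) scale (horizontal axis) of the 6 genes that passed the filter (vertical axis) in each of the 3 comparisons, fitted with limma on 6 libraries each. Whiskers are standard errors and dashed lines mark a size of 1; Pdgfrb stands at 2.72 and 2.04 in the comparisons with the labelled group, Met at −2.01 and −2.65 against WT c-kit-, and Insr and Axl lie inside the dashed lines throughout.

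Pdgfrb, a receptor for platelet-derived growth factors best known from pericytes and other mesenchymal cells (chr18:61045150-61085061, plus strand), was 2.87, 2.82 and 1.94 TPM in WT c-kit- and 0.68, 1.46 and 1.57 TPM in WT c-kit+. In the libraries labelled IRF7-/- c-kit+ it was 12.1, 15.9 and 12.7 TPM. The groups did not overlap, and each labelled library was above every wild-type library. Means were 2.54 ± 0.523, 1.24 ± 0.485 and 13.6 ± 2.05 TPM (SD, n = 3), so the labelled group stood 11.0 times above WT c-kit+ and 5.34 times above WT c-kit-. The log2 fold change to the labelled group was 2.72 (standard error 0.20) from WT c-kit+ and 2.04 (standard error 0.16) from WT c-kit-, and between the wild-type groups it was −0.68 (standard error 0.22). With a pseudocount of 0.1 in place of 1, the first and last of these were 3.42 and −1.04.

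Stromal markers were read beside Pdgfrb. The list of 10 genes was led by Lepr and Rgs5. Rgs5, a pericyte marker, was 10.5, 11.1 and 10.6 TPM in the labelled group and no more than 0.31 TPM in any wild-type library. Acta2, also a gene of pericytes and smooth muscle, was 2.51, 1.95 and 2.34 TPM in the labelled group and no more than 1.24 TPM elsewhere. Cxcl12 was 1.21, 1.60 and 1.20 TPM there and no more than 0.51 TPM elsewhere. These 3 genes were thus higher in each labelled library than in any wild-type library, as Pdgfrb was, whereas Lepr was 15.9 to 58.4 TPM across all 9 libraries and overlapped. Of 4 stromal markers tested by limma between the c-kit+ groups, Rgs5 and Acta2 were called higher and 0 lower. Over all genes tested there, 6.30% were called higher and 5.39% lower. The median log2 fold change of the 4 markers was 1.16. Rgs5, Acta2 and Cxcl12 passed the filter only through the labelled group, so their part in the count and the median was given by the filter. Without Lepr, the stromal sum was 15.1 to 15.8 TPM in the labelled group, 2.37 to 6.29 TPM in WT c-kit- and 1.81 to 3.68 TPM in WT c-kit+. The other 6 genes of the list, the collagen and matrix genes (Col1a1, Col1a2, Col3a1, Dcn, Lum and Sparc), summed to 0.88 to 1.67 TPM in the labelled group, 1.23 to 4.3 TPM in WT c-kit- and 1.25 to 2.53 TPM in WT c-kit+, and no single value of theirs was over 1.51 TPM. The part of stromal cells in the Pdgfrb level was not tested. Pdgfra, its sister gene and also carried by stromal cells (chr5:75152292-75198215, plus strand), was between 0 and 0.25 TPM in all libraries and 0.04 TPM or less in the labelled group. Pdgfra lies 376700 bases from Kit on chromosome 5 and did not share its level. Csf1r, the receptor tyrosine kinase gene 15536 bases from Pdgfrb on the same strand, had its lowest levels in the labelled group, at 25.0 to 32.8 TPM.

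The TAM receptors, which in myeloid cells take part in the uptake of dying cells and in damping of inflammatory signals, were low. Axl (chr7:25757273-25788705, minus strand) was 0.93, 1.97 and 4.04 TPM in WT c-kit- and 1.43, 1.23 and 1.19 TPM in WT c-kit+, while the labelled group had 0.91, 1.09 and 1.29 TPM. All 3 groups overlapped. WT c-kit- library 3 held the highest Axl level, and the log2 fold change from WT c-kit- to WT c-kit+ was −0.43 (standard error 0.34) with it and −0.07 (standard error 0.23) without it. The same change was −0.76 without WT c-kit- library 1, which held the lowest level of its group. Mertk (chr2:128698956-128802894, plus strand) ranged from 0.07 to 0.55 TPM, with group means of 0.440, 0.373 and 0.247 TPM in WT c-kit-, WT c-kit+ and the labelled group. Tyro3 (chr2:119797733-119818104, plus strand) ranged from 0 to 0.20 TPM. The groups of both genes overlapped. Mertk is otherwise a defining gene of tissue macrophages, and here it was low in each library, as were the macrophage genes Timd4 (no more than 0.17 TPM) and C1qa.

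Flt1, which encodes VEGF receptor 1 and is found on endothelium and monocytes (chr5:147561604-147726011, minus strand), was 2.17, 1.35 and 2.55 TPM in WT c-kit- and 2.51, 3.40 and 2.75 TPM in WT c-kit+. It was 0.59, 0.88 and 0.74 TPM in the labelled group, below every wild-type library, while the wild-type groups overlapped. Means were 2.02 ± 0.613, 2.89 ± 0.460 and 0.737 ± 0.145 TPM (SD, n = 3). The log2 fold change to the labelled group was −1.16 (standard error 0.15) from WT c-kit+ and −0.78 (standard error 0.19) from WT c-kit-, and between the wild-type groups it was 0.38 (standard error 0.20). In both comparisons with the labelled group, Flt1 passed the filter only through the wild-type group, where it was high. The pseudocount of 1 is larger than its levels in the labelled group. With a pseudocount of 0.1 the changes to the labelled group were −1.84 and −1.31, and the second was then called. The endothelial marker sum overlapped between these groups, at 7.05 to 8.32 TPM in the labelled group and 6.7 to 9.66 TPM in WT c-kit+. Fgfr1 (chr8:25513654-25575718, plus strand) was 0.15 to 0.38 TPM in WT c-kit-, 0.03 to 0.31 TPM in WT c-kit+ and 0.02 to 0.13 TPM in the labelled group, with overlap between the wild-type groups and between the c-kit+ groups.

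The order of the levels differed between groups. By mean, in WT c-kit- it was Met, Insr, Igf1r, Pdgfrb, Axl and Flt1, where the last 3 overlapped each other. In WT c-kit+ it was Igf1r, Insr, Met, Flt1, Axl and Pdgfrb, where Axl and Pdgfrb overlapped. In the labelled group it was Igf1r, Pdgfrb, Insr, Met, Axl and Flt1, where Pdgfrb overlapped both Igf1r and Insr. Summed over all 10 genes, the levels were 68.6 to 80.8 TPM in WT c-kit-, 69.8 to 71.0 TPM in WT c-kit+ and 45.6 to 54.9 TPM in the labelled group.

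The promoters of the members were read from RefSeq on GRCm38.p6, as the 250 bases before the annotated start. The table held 7 of the 10 genes and lacked Pdgfrb, Insr and Fgfr1. The promoters of Igf1r and Flt1 are shown because their levels were called different between the c-kit+ groups. They run 5′ to 3′ on the strand of the gene, with GC boxes (GGGCGG on either strand, the core bound by SP1) in capitals. Igf1r lies at chr7:67952007-67952256 on the plus strand and Flt1 at chr5:147726012-147726261 on the minus strand.
Igf1r promoter: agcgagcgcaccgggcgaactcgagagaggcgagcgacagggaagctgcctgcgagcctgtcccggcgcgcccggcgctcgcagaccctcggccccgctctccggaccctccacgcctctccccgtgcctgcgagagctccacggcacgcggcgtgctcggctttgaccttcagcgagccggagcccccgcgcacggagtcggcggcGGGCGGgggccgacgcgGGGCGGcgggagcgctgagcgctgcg
Flt1 promoter: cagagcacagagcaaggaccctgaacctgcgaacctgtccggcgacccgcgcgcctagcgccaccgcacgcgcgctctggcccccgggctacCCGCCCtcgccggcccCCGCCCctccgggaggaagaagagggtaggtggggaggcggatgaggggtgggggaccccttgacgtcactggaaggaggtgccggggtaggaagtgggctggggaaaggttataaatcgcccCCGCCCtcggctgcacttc
The Igf1r promoter was 77.6% G and C, with 42 CpG and 2 GC boxes, and the Flt1 promoter 70.4%, with 23 CpG and 3 GC boxes. That of Met, at chr6:17463707-17463956 on the plus strand, was 74.0% with 24 CpG and 3 GC boxes. Over all 32851 promoters of the table the medians were 52.4% and 6 CpG, and 32.7% held a GC box. An IRF element (GAAA repeated after a gap of 2 bases), a RUNX site (TGTGGT) and a PU.1 core (GAGGAAGT), searched on both strands, matched in none of the 7 promoters, and were found in 2.98%, 14.0% and 2.44% of all promoters. The absence of a match says only that these letters are not in this window.

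The rest of the family was read in the same libraries. Of 47 other receptor tyrosine kinase genes, 33 were under 1 TPM in every library and 5 of them at 0 in all, so that, as for Pdgfra, Mertk, Tyro3 and Fgfr1, most receptors of this class were hardly expressed. Between the wild-type groups 11 were tested, and in WT c-kit+ 3 fell and 0 rose, where 14.4% of all genes tested were called. At an unadjusted p under 0.05, 6 of the 11 passed in either direction, beside 6625 of 13261 genes in all. Csf1r, the receptor for macrophage colony-stimulating factor, fell from 398.8 ± 21.9 to 50.9 ± 14.7 TPM (SD, n = 3; log2 fold change −2.99, standard error 0.20, limma adjusted p = 7.12e-05). Epha2, an ephrin receptor, fell from 20.8 ± 4.66 to 1.67 ± 0.312 TPM (−3.01, standard error 0.19, limma adjusted p = 5.7e-05). Flt3, a receptor of early progenitors and dendritic cell precursors, fell from 59.9 ± 21.9 to 12.2 ± 5.97 TPM (−2.24, standard error 0.40, limma adjusted p = 0.00448). Met had its high level in the same WT c-kit- libraries as these 3 genes. The median log2 fold change over the 11 genes was −0.37, and −0.08 over all genes tested.

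In the libraries labelled IRF7-/- c-kit+, 2 of 10 tested family genes rose against WT c-kit+ and 0 fell. Over all genes tested there, 11.7% were called in either direction. At an unadjusted p under 0.05, 7 of the 10 passed, beside 7309 of 13238 genes in all. Epha7, an ephrin receptor best known from the nervous system, rose from 16.1 ± 3.31 to 139.6 ± 7.81 TPM (SD, n = 3; log2 fold change 3.05, standard error 0.13, limma adjusted p = 2.67e-05) and was the most abundant receptor tyrosine kinase gene of that group, above Kit. Tie1, an endothelial receptor, was 0.04 TPM in each WT c-kit+ library and 4.44, 2.16 and 3.71 TPM in the labelled group (2.06, standard error 0.22, limma adjusted p = 0.00069), and passed the filter only through that group. Against WT c-kit-, Epha7 and Tie1 rose (3.88 and 2.10) and Csf1r and Epha2 fell (−3.75 and −3.74). In that comparison 20.3% of all genes tested were called in either direction. The Epha7 level lay above every wild-type library, as did that of Pdgfrb. Beside Tie1, 0 of 3 tested endothelial markers were called by limma against WT c-kit+, where 11.7% of all genes tested were called. Of these 3 markers, 1 was at an unadjusted p under 0.05. That gene, Plvap, was 1.39, 1.05 and 1.20 TPM in the labelled group and no more than 0.65 TPM in any wild-type library. Plvap passed the filter only through the labelled group, where it was high (log2 fold change 0.76, limma adjusted p = 0.0178). Its labelled and wild-type libraries did not overlap, and the part of endothelial cells in the Tie1 level was not tested. A few family genes, named after their values were seen, varied widely within a group. Fgfr2 was 84.8, 22.7 and 7.30 TPM in WT c-kit-, and Epha5 was 74.3, 12.0 and 0.04 TPM in WT c-kit+ and 0.04 TPM or less in the labelled group. Flt3 was 56.9 TPM in labelled library 2 and 8.65 and 7.93 TPM in libraries 1 and 3.

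**Figure D3:**
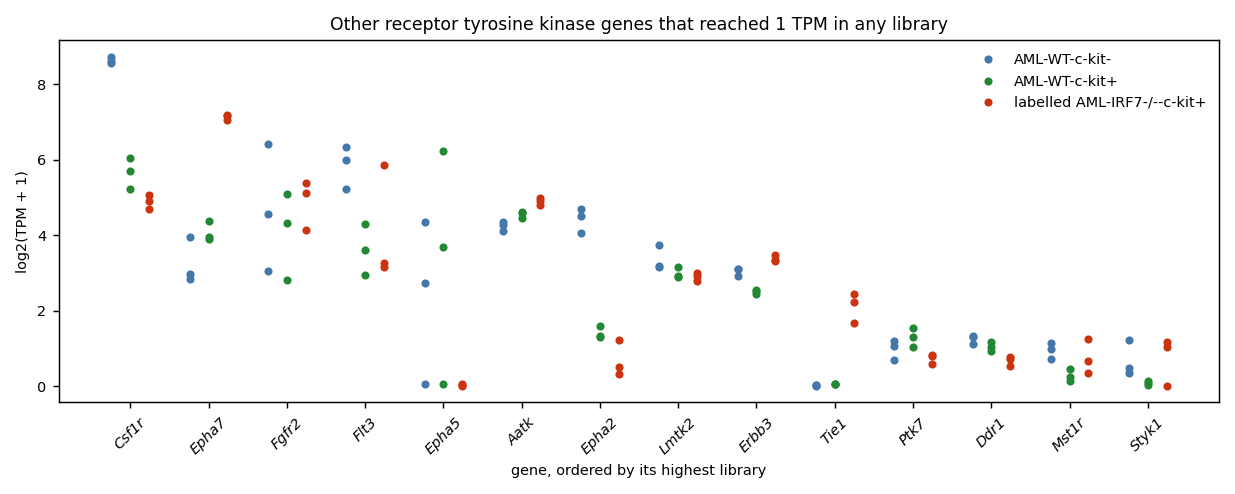
Level on the log2(TPM + 1) scale (vertical axis) of the 14 other receptor tyrosine kinase genes that reached 1 TPM in a library (horizontal axis), with a point for each of the 9 libraries coloured by group. Csf1r, Flt3 and Epha2 are highest in WT c-kit-, Epha7 and Tie1 in the libraries labelled IRF7-/- c-kit+, and Fgfr2 and Epha5 spread widely within groups.

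Ligands and co-receptors of the 10 receptors were a list of 24 genes. Several ligands were hardly expressed: Igf1, Igf2, Ins1 and Ins2, which bind Igf1r and Insr, Gas6, which binds the TAM receptors, and Pdgfc and Pdgfd were under 1 TPM in all 9 libraries. Hgf, the ligand of Met, was expressed in all 9, between 5.92 and 12.0 TPM. Vegfb, a ligand of Flt1, was between 7.68 and 12.1 TPM. From WT c-kit- to WT c-kit+, 8 of the 24 were tested, 1 rose and 3 fell. In that comparison 14.4% of all genes tested were called in either direction. Vegfa, which binds Flt1, rose from 11.5 ± 8.31 to 101.4 ± 7.73 TPM (SD, n = 3; log2 fold change 3.26, standard error 0.46, limma adjusted p = 0.00164). In WT c-kit- it was 4.30, 9.54 and 20.6 TPM in libraries 1, 2 and 3, the same order as Igf1r and Kit. Pdgfb, which binds Pdgfrb, fell from 2.72 to 0.277 TPM (−1.54, limma adjusted p = 0.000625), having passed the filter only through WT c-kit-. Pros1, which encodes protein S and so a TAM ligand, fell from 6.95 to 1.33 TPM (−1.78, limma adjusted p = 0.00857). Nrp1, a co-receptor for VEGF, fell from 57.8 ± 11.1 to 4.33 ± 1.61 TPM (−3.50, limma adjusted p = 9.48e-05).

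From WT c-kit+ to the labelled group, 6 of the ligands and co-receptors were tested, 1 rose and 1 fell. Over all genes tested there, 11.7% were called in either direction. Nrp1 fell further, to 0.197 ± 0.103 TPM (log2 fold change −2.11, limma adjusted p = 0.000928), having passed the filter only through WT c-kit+, and Nrp2, the related co-receptor, rose from 0.910 ± 0.210 to 6.66 ± 0.826 TPM (2.00, limma adjusted p = 0.000171). Vegfa was 73.5 ± 3.73 TPM in the labelled group and was not called between the c-kit+ groups, whereas Flt1 was below every WT c-kit+ library. Against WT c-kit-, 8 were tested, Vegfa and Nrp2 rose, and Pdgfb, Pros1 and Nrp1 fell, where Pdgfb and Nrp1 passed the filter only through WT c-kit-. In that comparison 20.3% of all genes tested were called in either direction. Pdgfb was 0 to 0.42 TPM in the libraries where Pdgfrb was highest, and Pdgfa was 0.22 to 1.07 TPM there. Nrp2 was 2.08 TPM in WT c-kit- library 2, and without it the rise of 1.07 (limma adjusted p = 0.00208) was 0.95 (limma adjusted p = 0.00722) and not called.

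Adaptors and core signalling genes, were a list of 36. Of 33 tested from WT c-kit- to WT c-kit+, 2 fell and 0 rose, where 14.4% of all genes tested were called in either direction. At an unadjusted p under 0.05, 22 of the 33 passed, beside 6625 of 13261 genes in all. Gab2, a docking protein, fell from 27.1 to 12.4 TPM (log2 fold change −1.07, limma adjusted p = 0.00104). The Gab2 change was −0.99 without WT c-kit+ library 1 and was then not called. From WT c-kit+ to the labelled group, 33 were tested, 1 rose and 2 fell, where 11.7% of all genes tested were called. Irs2, the docking protein of Igf1r and Insr, fell from 17.5 ± 2.17 to 2.78 ± 0.496 TPM (SD, n = 3; −2.29, standard error 0.15, limma adjusted p = 0.000101), and Irs1 was under 1 TPM in all 9 libraries. Irs2 was 18.8, 15.0 and 18.7 TPM in WT c-kit+, while the labelled group had 3.17, 2.94 and 2.22 TPM, so that the docking protein and Igf1r both had their higher level in WT c-kit+. Gab1, the docking protein that binds Met, rose from 0.970 to 5.05 TPM (1.63, limma adjusted p = 0.000641). Against WT c-kit-, 34 were tested, 2 rose, namely Gab1 and Nck2, and 3 fell, among them Gab2 and Irs2. In that comparison 20.3% of all genes tested were called in either direction.

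The 24 inhibitors act on the receptors or on the ERK pathway, and 20 were tested in each comparison. In WT c-kit+ against WT c-kit-, 2 rose and 3 fell, where 14.4% of all genes tested were called in either direction. Spry2, an ERK pathway inhibitor, rose from 3.91 to 12.9 TPM (log2 fold change 1.51, limma adjusted p = 9.56e-05), Ptprj, a receptor phosphatase, fell from 46.0 to 18.0 TPM (−1.31, limma adjusted p = 9.1e-05) and Sh2b3, an adaptor that restrains Kit and cytokine receptors, fell from 93.8 to 35.2 TPM (−1.39, limma adjusted p = 2e-05). Dok2 rose (1.55, limma adjusted p = 0.0199) and Cblb, a ubiquitin ligase for receptors, fell (−1.13, limma adjusted p = 0.00708). The Dok2 call was lost without WT c-kit- library 1 or 2 (1.30 and 1.34) and without WT c-kit+ library 1 or 3 (1.54 and 1.42), and the Cblb call without WT c-kit- library 2 (−0.92). From WT c-kit+ to the labelled group, 1 rose and 2 fell, where 11.7% of all genes tested were called. Dusp6, a phosphatase of ERK that ERK itself induces, fell from 28.3 ± 1.77 to 3.45 ± 1.73 TPM (SD, n = 3; −2.79, standard error 0.25, limma adjusted p = 0.000329), Ptprj fell to 7.62 TPM (−1.14, limma adjusted p = 0.000247), and Errfi1 rose from 0.503 to 2.15 TPM (1.06, limma adjusted p = 0.00165), having passed the filter only through the labelled group. The Errfi1 value was 0.98 without labelled library 2, and not called. Against WT c-kit-, Spry2 rose and Spred1, Ptprj, Dusp6 and Sh2b3 fell, where 20.3% of all genes tested were called.

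ERK-induced genes were a list of 11. From WT c-kit- to WT c-kit+, 9 were tested, and Fosl1 and Ier3 rose (log2 fold change 1.07, limma adjusted p = 0.0265, and 1.28, limma adjusted p = 0.0107), while Fos fell from 618.4 to 112.7 TPM (−2.41, limma adjusted p = 0.00606). In that comparison 14.4% of all genes tested were called in either direction. The Fosl1 call was lost without any 1 of 5 libraries, with values from 0.78 to 1.11: WT c-kit- library 1 or 2, or WT c-kit+ library 1, 2 or 3. From WT c-kit+ to the labelled group, 8 were tested, 6 fell and 0 rose, where 5.39% of all genes tested were called lower. The median log2 fold change of the 8 was −1.79, against 0.12 over all genes tested. Ccnd1, which encodes cyclin D1, fell from 9.31 ± 1.62 to 1.05 ± 0.494 TPM (SD, n = 3; −2.34, standard error 0.20, limma adjusted p = 0.000307). Dusp5, an ERK phosphatase, fell from 16.4 to 2.30 TPM (−2.30, limma adjusted p = 0.00131) and Phlda1 from 5.27 to 0.613 TPM (−1.96, limma adjusted p = 0.000386). Phlda1 and Fosl1, which is among the 6, passed the filter only through WT c-kit+, where they were high, so their part in the count was given by the filter. Egr1, an immediate early transcription factor, ran from 44.6 to 177.2 TPM in WT c-kit+ and from 3.99 to 39.1 TPM in the labelled group (−2.77, standard error 0.81, limma adjusted p = 0.0283). Its call was lost without WT c-kit+ library 1 or 2 (−2.80 and −2.26) and without labelled library 1 or 2 (−2.64 and −2.08). WT c-kit+ library 2 held the highest Egr1 of its group and labelled library 2 the lowest. Against WT c-kit-, 8 were tested and 5 fell, led by Ccnd1, Fos, Egr1 and Dusp5, where 11.9% of all genes tested were called lower. Phlda1, also among the 5, passed the filter only through WT c-kit-, where it was high. Myc rose from 53.9 to 117.4 TPM (1.11, limma adjusted p = 0.000488). Myc was 1.00 without labelled library 2 and not called, and Egr1 was not called without WT c-kit- library 2 or 3 (−2.43 and −2.88) or labelled library 1 or 2 (−2.87 and −2.31).

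**Figure D4:**
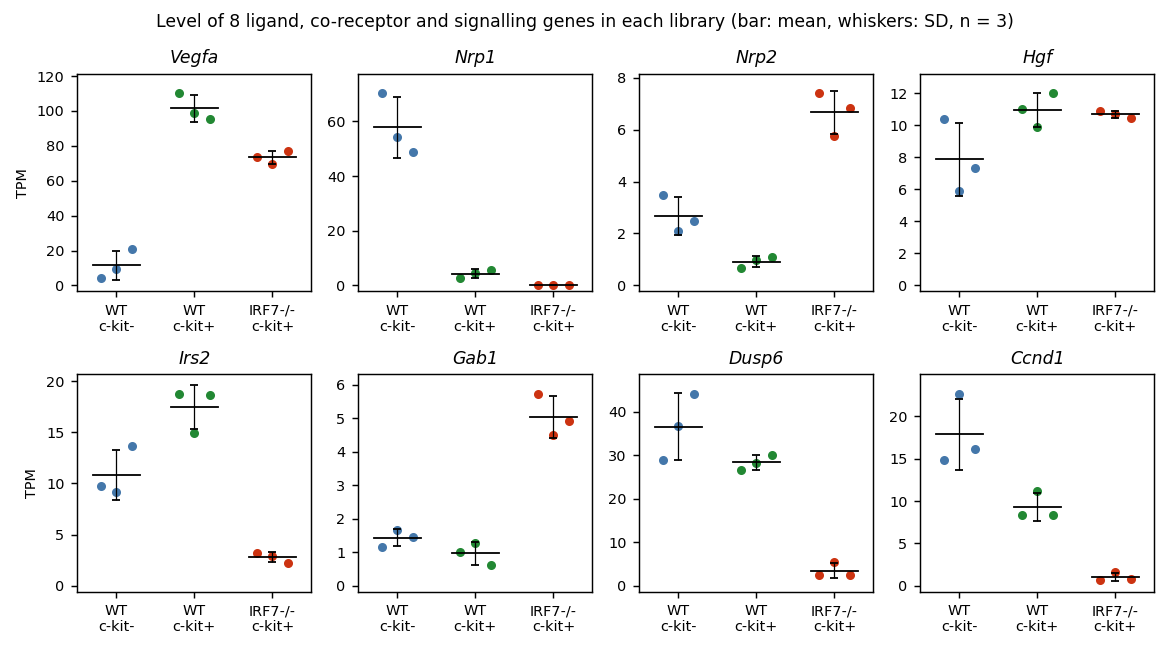
Level in TPM (vertical axis, a separate linear scale for each gene) of Vegfa, Nrp1, Nrp2, Hgf, Irs2, Gab1, Dusp6 and Ccnd1 in each of the 9 libraries, by group (horizontal axis; IRF7-/- as labelled). Points are libraries, horizontal bars group means and whiskers 1 SD with n = 3, not drawn below 0; Irs2, Dusp6 and Ccnd1 lie below every wild-type library in the labelled group, Nrp2 and Gab1 above, and Hgf lies between 5.92 and 12.0 TPM.

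For each of the 6 tested members, the 3 genes with the most similar profile were found by Pearson correlation of log2(TPM + 1) over the 9 libraries, among 13961 genes. The 9 points fall in 3 groups and share their libraries, so a high value mostly states the same order of groups, and it is given as a description. For Pdgfrb they were 2210016F16Rik, Gng11 and Vmn2r84 (r from 0.993 to 0.995). Gng11 was 4.04, 2.06 and 24.1 TPM in WT c-kit-, WT c-kit+ and the labelled group, which is close to the profile of Pdgfrb in both order and size. For Igf1r they were Per2, Hsd11b1 and Zfp141 (0.990 to 0.992), for Met Hmg20b, Frmd4b and Socs6 (0.988 to 0.990), and for Insr Nrg1, Dlg3 and Klk1b27 (0.979 each). Flt1 was nearest to 9630013D21Rik, Tgoln1 and Smyd4 (0.953 to 0.958). Axl was nearest to Ighv6-6, Igkv6-25 and Gm12865 (0.921 to 0.955), of which the first pair are antibody variable segments. Among the members themselves the highest value was 0.930, for Met and Insr, and the lowest −0.917, for Pdgfrb and Flt1.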

How the data were processed

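Bulk RNA-seq was analysed for 9 libraries in 3 groups, mapped to samples by column name. The authors deposited 1 table of TPM, made from TruSeq v2 libraries; the aligner, build and any filter are not given in the sources used here, and the paper's methods call the assay a microarray. No header names the unit, which was taken as TPM because libraries sum to 987468 to 992231. TPM keep no depth, so no counting intervals are given, and precision is known only from 3 libraries per group. All 55536 identifiers matched GENCODE M21 on GRCm38.

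limma 3.58.1 (R 4.3.3; lmFit, eBayes with trend) was run on log2(TPM + 1) for each pair of groups on its own 6 libraries, over genes that reached 1 TPM in 3 or more of them, with Benjamini-Hochberg adjustment over all genes tested. Calls needed a log2 fold change of 1 in size and an adjusted p under 0.05, thresholds taken from the paper's results. Fold changes on this scale understate changes of low genes. Alternatives were quantile normalization, median ratio scaling, a pseudocount of 0.1, a filter of 5 TPM or none, all 9 libraries in 1 fit, the replicate number as a block, and each library left out. Python 3.11.15, pandas 2.3.3 and matplotlib 3.10.9 were used.

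The members and gene lists were chosen with earlier results of these data known. Named genes were all 10 members; other receptor tyrosine kinases called in any comparison; from each pathway list, all genes called where 5 or fewer were called and otherwise the 4 of largest log2 fold change; and the 2 most abundant genes of each marker list. Genes outside this rule, among them other ligands, Irs1, Timd4 and several marker genes, were named after their values were seen. A gene counted in the pathway lists is not reported here by name.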

Additional observations from a re-analysis of the deposited data

How the results depend on the processing

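Of the 227 alternative values for the members, 220 moved by less than the spread between replicates and 0 changed sign. The other 7 were Pdgfrb (−1.04, 3.42 and 2.38 in the 3 comparisons) and Flt1 (−1.84 and −1.31 to the labelled group) with a pseudocount of 0.1, Insr with quantile normalization (−0.24) and Igf1r between the c-kit+ groups with median ratio scaling (−1.41). The call of Igf1r against WT c-kit- was also lost with no filter, a fit in which limma warned that its variance estimate was unreliable, and with median ratio scaling (0.98). A filter of 5 TPM, which tests fewer genes, lowered the calls between the c-kit+ groups from 1548 to 1015 over all genes, from 2 to 1 in the rest of the family and from 14 to 9 in the pathway lists. Of 62 calls (family and pathway lists, Kit and Irf7), 9 were lost in at least 1 alternative that still tested the gene. Calls of genes that the filter of 5 TPM removed are not counted among these 9. Errfi1, Gab2 and Cblb were lost also with quantile normalization (0.98, −0.92 and −0.97), and Fosl1 with a pseudocount of 0.1 (limma adjusted p = 0.0603). With a pseudocount of 0.1 fold changes of low genes grew, Tie1 for example to 4.60 against WT c-kit+. Irf7 between the c-kit+ groups was 0.89 (limma adjusted p = 0.0321), and was called in 3 alternatives, with values from 1.02 to 1.12.

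The median over all genes tested moved with the scaling. It was −0.08, 0.12 and 0.03 in the 3 comparisons, and 0.07, 0.03 and 0.09 with quantile normalization. Relative to the median, Pdgfrb and Igf1r stood at 2.60 and −1.40 between the c-kit+ groups and Met at −1.93 between the wild-type groups.

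Replicate numbers come from the labels, which do not tie equal numbers to a mouse or day. Deviations of same-numbered libraries correlated between −0.0591 and 0.260, and those of libraries with other numbers between −0.203 and 0.157. The same-number value was above every other-number value for some libraries and not for others. Since the labels give no such tie, the main fits did not treat the numbers as pairs. With the replicate block, 1950, 1549 and 2749 genes were called in place of 1916, 1548 and 2738, of which 1903, 1528 and 2719 were shared, the members called stayed at 2, 3 and 3, and of the calls in the family and pathway lists Egr1 between the c-kit+ groups was lost (limma adjusted p = 0.0673). Leaving out 1 library at a time gave 1804 to 1997, 1432 to 1599 and 2659 to 2799 genes.

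With 3 libraries a group and no depth, values near or under 1 TPM (Pdgfra, Mertk, Tyro3, Fgfr1, and Flt1 in the labelled group) cannot be told from low counts.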
